A study of Mus musculus with 2 samples.

Results

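The genes described here encode 3 cytosolic sulfotransferases, Sult1e1, Sult3a1 and Sult2a5, in mouse liver after parenteral nutrition (PN, feeding through a vein instead of the gut). They were taken by name as the rows of the deposited array table that carry exactly 1 gene symbol from this set, 1 row for each gene, out of 1750 genes with such a row. They had been chosen by their PN minus saline differences on these same 2 arrays, so the values below describe the arrays and are not findings of a test. Liver RNA came from C57BL/6J mice, a common inbred strain, aged 6 to 10 weeks, and the labels used here give no sex. In both groups a catheter was placed in the jugular vein on day 1 and saline was infused from day 2. On day 3 the PN group was switched to the nutrient infusion and lost access to food, and the saline group stayed on saline with food available. Liver was collected on day 11. RNA of 3 mice was pooled for each group and each pool was measured on 1 array, so the infusion and the removal of food cannot be told apart and no difference has a replicate check.

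Cytosolic sulfotransferases move a sulfonate group from the donor PAPS (3′-phosphoadenosine 5′-phosphosulfate) onto hydroxyl or amine groups of small molecules. The products are more soluble in water, are usually inactive at the receptors of the parent compound, and leave the hepatocyte for bile or blood. Sulfatases can reverse the step, and glucuronosyltransferases act on many of the same substrates. In mouse liver several members of the family are known for higher expression in females, which the pattern of growth hormone secretion governs.

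Levels are RMA values (robust multi-array average, a background-corrected, normalized and summarised probe set signal) on the log2 scale, and a difference is the PN level minus the saline level. Over the 5082 rows the levels ran from 1.38 to 11.8 with a median of 4.36 in the PN pool, and from 1.32 to 12.5 with a median of 4.37 in the saline pool. The authors had deposited the rows past a 1.5-fold cutoff, and absence of a gene does not show that it stayed the same. The background level is 3.26, the median over 133 chemosensory receptor genes in the table of the higher of their 2 levels. A level under it was raised to it before a fold was taken, and such a fold is a bound relative to this chosen level only. The receptor genes had themselves passed the cutoff, so they do not stand for all receptor genes on the array. Where differences were centred on them, the shift was their median difference of -0.64, which the cutoff keeps away from 0. Probe sets differ in how brightly they bind, so levels of different genes are not amounts of transcript that can be ranked. None of the 8 hepatocyte markers looked for had a named row, so the labelled tissue could not be checked on them. Markers of other cells had rows in both directions, beside 50.2% higher and 49.8% lower over all named genes. All 5 macrophage markers with a row, of 8 listed (Cd5l, Cd68, Clec4f, Marco and Vsig4), had higher values under PN, with summed linear levels of 1411 in the PN pool and 800.2 in the saline pool. Both cholangiocyte markers with a row, of 7 listed, were lower in the PN pool (Epcam and Tspan8, summed to 50.9 in the PN pool and 80.7 in the saline pool), although Tspan8 turned to 0.05 on the log2 scale when the differences were centred on those of the receptor genes. Of the remaining marker lists, 2 of 7 exocrine pancreas genes and 1 of 5 adipocyte genes had a row and were lower, and 2 of 4 intestinal genes had a row and were higher. Their part in the sulfotransferase values was not tested.

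Of the 3 genes, Sult1e1 and Sult3a1 were higher and Sult2a5 was lower in the PN pool, in a table where 50.2% of named genes were higher and 49.8% lower. With levels under background raised to it, Sult1e1 alone differed by at least 2-fold, as did 12.8% of named genes. The 3 differences were 4.10, 1.44 and -0.98, so Sult1e1 lay 2.66 above Sult3a1 and 5.08 above Sult2a5 on the log2 scale.

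**Figure D1:**
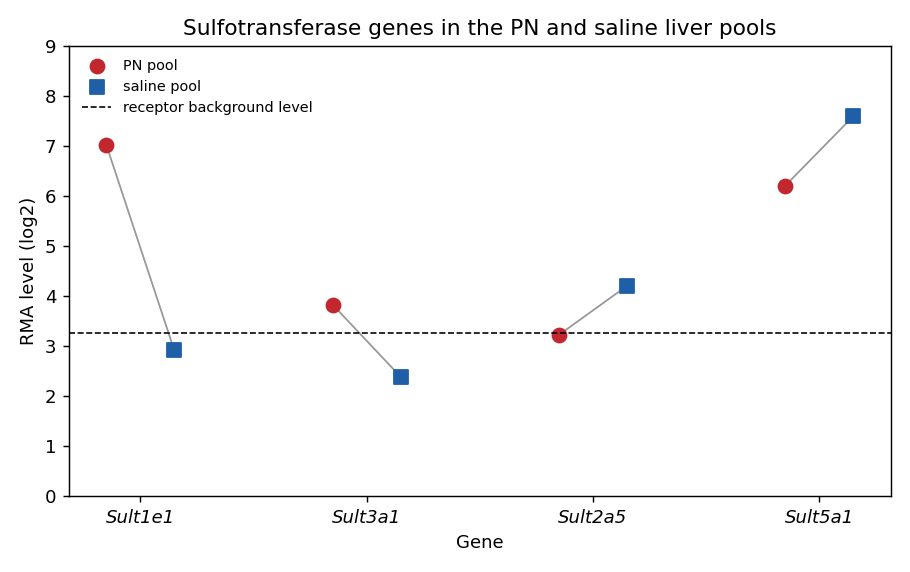
RMA level (log2, vertical axis) of Sult1e1, Sult3a1, Sult2a5 and a further family member, Sult5a1, in the PN pool (circles) and the saline pool (squares), 1 array each, with the background level of 3.26 as a dashed line. Sult1e1 was at 7.02 in the PN pool and 2.91 in the saline pool, and Sult5a1 lay above the line in both. Sult3a1 was at 3.83 in the PN pool and 2.39 in the saline pool. Sult2a5 was at 3.23 in the PN pool and 4.20 in the saline pool.

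Sult1e1 encodes the estrogen sulfotransferase, which inactivates estradiol and estrone at low concentrations. Its level was 7.02 in the PN pool and 2.91 in the saline pool. The saline level was under background, and against the background level the PN pool was at least 13.5-fold higher. Taken directly, the difference of 4.10 corresponds to a 17.2-fold higher level, a value that rests on a saline level within the range of the receptor genes. With the background level set at 3.93, the 75th percentile of the receptor genes, the PN pool was at least 8.52-fold higher. Among the 5082 deposited rows the PN level was at percentile 93.1 in the PN pool, and the saline level at percentile 13.5 in the saline pool. Thus, among rows that had passed the cutoff, the probe set was bright in the PN pool and dim in the saline pool. Its place among all probe sets of the array is not known.

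The size of this difference can be set beside the other rows that were dim in the saline pool. A saline level under background was found for 1110 rows, and their median PN level was 3.14. Of these rows 721 had the higher level under PN, and their median PN level was 3.62. Of the 1110 rows, 19 had a PN level over 5 and 3 had one over 6, and none but Sult1e1 reached 7.02. Of the 242 named genes with a saline level under background, Sult1e1 was the only one with a PN level over 5. By size of the direct difference it was the first of the 878 higher named genes, and the second over all rows, after a row that carries no gene name.

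**Figure D2:**
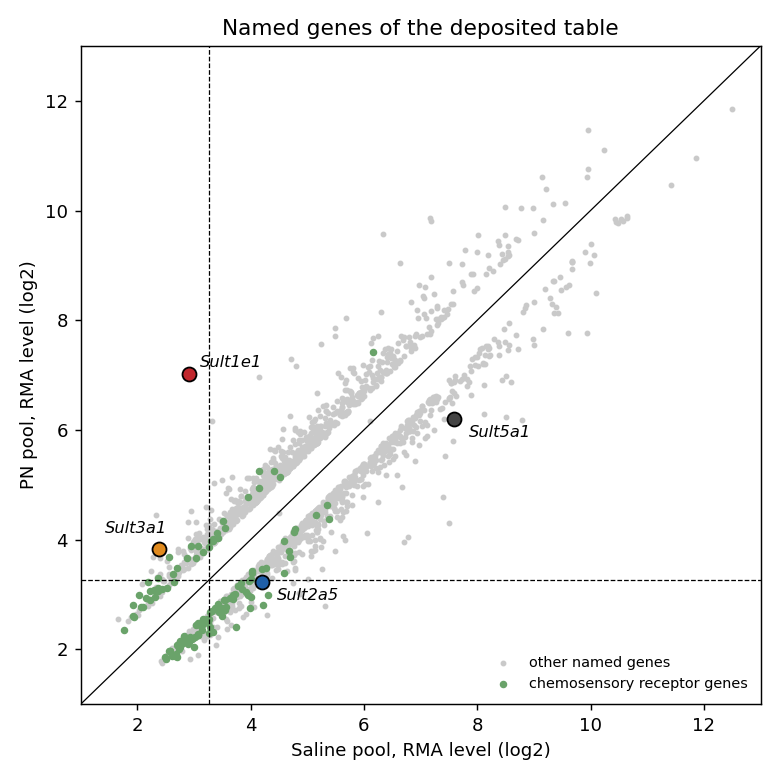
PN level against saline level (both RMA, log2) of the 1750 named genes, with the 133 chemosensory receptor genes in green, the background level of 3.26 as dashed lines and equal levels as a solid line. The empty band along the solid line is the 1.5-fold cutoff of the deposited table, and Sult1e1, at 7.02 in the PN pool and 2.91 in the saline pool, lies by itself above the other genes of low saline level.

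The 250 bases before the annotated start of Sult1e1 are shown because this gene had the largest direct difference among named genes, although Cyp2b9 (3.23) exceeded it (3.09) with the background level set at 3.93. They lie at chr5:87591612-87591861 on the minus strand of GRCm38.p6 (RefSeq) and are written 5′ to 3′, with the capitals marking the single match to the nuclear receptor core AGGTCA on either strand.
Sult1e1: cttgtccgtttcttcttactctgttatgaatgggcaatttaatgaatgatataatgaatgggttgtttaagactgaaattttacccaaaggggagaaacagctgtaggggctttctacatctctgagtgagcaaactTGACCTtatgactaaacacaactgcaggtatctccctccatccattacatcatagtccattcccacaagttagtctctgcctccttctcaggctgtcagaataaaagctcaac
The match lay 113 to 108 bases before the start, and 14.0% of 32851 annotated promoter windows of this length held such a match. No match was found in this window for the other 4 motifs searched on both strands, which were TTCNNNGAA (STAT5, which carries the growth hormone signal), ATCAAT (the core bound by HNF6), TGTTTAC (FOXA) and TATAAA (the TATA box). The motifs were chosen with the values known, and a match is a description of letters, not of a bound site.

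Sult3a1 encodes an amine sulfotransferase, which sulfonates arylamines and is known for expression in female mouse liver. Its level was 3.83 in the PN pool and 2.39 in the saline pool. The saline level was under background and the PN level was 0.56 above it. Against the background level the PN pool was thus at least 1.48-fold higher, and the direct difference of 1.44 corresponds to 2.71-fold. By difference Sult3a1 ranked 36 among the 878 higher named genes. Among the 242 named genes that were under background in the saline pool, 42, Sult3a1 included, had a PN level of at least 3.83.

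Both Sult3a1 levels lay inside the range of the chemosensory receptor genes. Of the 133 receptor genes, 38 had a higher level above the PN level of Sult3a1. Their absolute differences reached 1.41, with a 95th percentile of 1.11, so the direct difference of Sult3a1 was only just beyond their range. This range covers only receptor genes that had passed the 1.5-fold cutoff. It rests on a saline level under background, and with that level raised to background it was 0.56. With the background level set at 3.93, the 75th percentile of the receptor genes, both Sult3a1 levels lay under it and no fold could be given.

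The matching window of Sult3a1 is shown for comparison with Sult1e1, the other gene higher in the PN pool. It lies at chr10:33857472-33857721 on the plus strand of GRCm38.p6, with capitals marking, in order, the match to TTCNNNGAA and the match to ATCAAT.
Sult3a1: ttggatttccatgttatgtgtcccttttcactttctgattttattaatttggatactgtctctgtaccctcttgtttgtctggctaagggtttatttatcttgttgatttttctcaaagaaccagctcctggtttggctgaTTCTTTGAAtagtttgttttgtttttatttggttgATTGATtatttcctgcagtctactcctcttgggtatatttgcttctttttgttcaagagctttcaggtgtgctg
The TTCNNNGAA match lay 109 to 101 bases before the start, and 7.02% of all windows held one. The ATCAAT match, read on the opposite strand, lay 74 to 69 bases before the start, and 6.72% of all windows held one. Sult1e1 and Sult3a1 shared none of the 5 motifs in these windows.

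Sult2a5 belongs to the hydroxysteroid sulfotransferases, whose mouse liver members act on dehydroepiandrosterone and bile acids. Its level was 3.23 in the PN pool and 4.20 in the saline pool. The PN level lay just under background, so the PN pool was at least 1.92-fold lower, and the direct difference of -0.98 corresponds to 1.97-fold. The difference was -0.28, or 1.21-fold lower, with the background level set at 3.93, and -0.34 when centred on the receptor genes. By difference it ranked 144 among the 872 lower named genes. The table held 148 named genes with a PN level under background and a saline level at or above it, and 8 of the named genes under background in the PN pool, Sult2a5 included, had a saline level of at least 4.20.

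Sult2a5 lay within the spread of the receptor genes on both measures. The higher level of 21 of the 133 receptor genes exceeded its saline level, and 13 receptor genes had a larger absolute difference. In this it differed from Sult1e1, which was exceeded by 1 receptor gene in level and by none in difference. Sult2a5 also has close paralogs in a gene cluster, so which copies its probe set measured is uncertain. Sult3a1 lies beside Sult3a2, and whether its probe set also measured that gene was not checked.

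**Figure D3:**
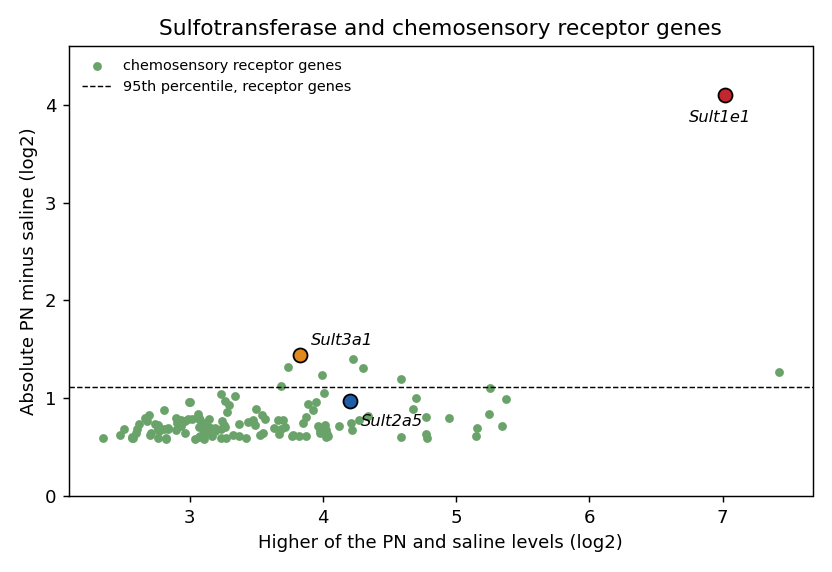
Absolute PN minus saline difference (log2, vertical axis) against the higher of the PN and saline levels (log2, horizontal axis) for the 133 chemosensory receptor genes and the 3 sulfotransferases, with the 95th percentile of the receptor differences, 1.11, as a dashed line. Sult1e1 lies far above the receptor genes at 4.10, Sult3a1 just above them at 1.44, and Sult2a5, whose signed difference was -0.98, among them.

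The window of Sult2a5 is shown as that of the gene lower in the PN pool. It lies at chr7:13623717-13623966 on the plus strand of GRCm38.p6, with capitals marking the match to TATAAA.
Sult2a5: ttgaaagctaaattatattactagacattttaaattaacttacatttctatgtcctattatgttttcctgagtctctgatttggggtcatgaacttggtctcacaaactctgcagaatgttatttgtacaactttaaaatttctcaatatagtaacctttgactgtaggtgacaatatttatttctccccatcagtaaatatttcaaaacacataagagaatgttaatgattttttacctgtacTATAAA
The match covered the last 6 bases before the annotated start, and 12.4% of all windows held TATAAA on either strand. The window of Sult2a5 was 28.4% G and C, against 35.6% for Sult3a1, 40.8% for Sult1e1 and a median of 52.4% over all windows. All 3 windows were thus poor in G and C, at percentiles 0.956, 5.41 and 13.3 of all windows for Sult2a5, Sult3a1 and Sult1e1.

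On their chromosomes the 3 genes sit beside other family members. Among the 5 protein-coding genes on either side, Sult1e1 had Sult1d1 and Sult1b1, Sult3a1 had Sult3a2, and Sult2a5 had 5 further Sult2a genes (Sult2a1, Sult2a2, Sult2a3, Sult2a4 and Sult2a6), by gene order in GRCm38.p6. None of these neighbouring sulfotransferase genes had a named row. Of all 10 neighbours of each gene, Ugt2b38, a glucuronosyltransferase gene near Sult1e1, was the only one with a row, and it was lower in the PN pool, at 2.52 in the PN pool and 3.59 in the saline pool.

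Of the 18 other cytosolic sulfotransferase genes looked for, 17 had no named row and Sult5a1 had one. No row with several gene symbols named a sulfotransferase. Sult5a1 was 2.61-fold lower, at 6.21 in the PN pool and 7.59 in the saline pool. Both levels were above background, and Sult5a1 ranked 33 among the 872 lower named genes. Its difference of -1.38 was thus larger than that of Sult2a5 and stood on brighter probe signal. Of the 21 family genes, 4 thus had a row, Sult1e1 and Sult3a1 higher and Sult5a1 and Sult2a5 lower, beside 50.2% higher and 49.8% lower over all named genes, and 3 of these 4 were chosen by their differences.

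Few genes that supply sulfate or the donor PAPS had a row. Of 17 listed, Slc13a1 and Ethe1 had one, and both were lower in the PN pool. Slc13a1, a sodium-coupled sulfate transporter, was 1.63-fold lower, at 3.55 in the PN pool and 4.26 in the saline pool. These levels and their difference lay within the spread of the receptor genes, whose 75th percentile level was 3.93. Ethe1, a mitochondrial persulfide dioxygenase of sulfide oxidation, was 1.61-fold lower, at 8.78 in the PN pool and 9.47 in the saline pool. Neither Papss1 nor Papss2, the PAPS synthases, had a named row. Of 13 genes of sulfatases and their activation, Sumf2, a paralog of the sulfatase-activating enzyme gene, was the only one with a row and was 1.80-fold lower, at 5.61 in the PN pool and 6.45 in the saline pool.

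Glucuronidation is the other main conjugation route for steroids and phenols. All 5 genes with a row, of 23 on a list for this route that also holds Ugt3a1, were lower in the PN pool. Their median difference was -0.83, or -0.19 when centred on the receptor genes, and Ugdh turned to 0.03 under this centring. Ugt3a1, which is known to transfer N-acetylglucosamine and not glucuronic acid, was 2.36-fold lower, at 5.99 in the PN pool and 7.23 in the saline pool. Ugt2b35 was 1.78-fold lower and Ugt2b1, an abundant liver glucuronosyltransferase, 1.62-fold lower. Ugdh, which makes the donor UDP-glucuronic acid, was 1.52-fold lower, at 8.72 in the PN pool and 9.33 in the saline pool. Ugt2b38 was at least 1.25-fold lower, since its PN level lay under background. Ugt8a, a galactosyltransferase of the same superfamily that is not on the list and is named after its value was seen, was 1.74-fold higher, at 5.22 in the PN pool and 4.42 in the saline pool. Together with Sult5a1 and the sulfate and sulfatase genes, 9 of 71 listed conjugation genes had a row, and all 9 were lower as deposited, with a median of -0.83, beside 49.8% of all named genes. Centred on the receptor genes the median of these 9 was -0.19, with 1 of them higher. The 71 genes leave out the 3 members, of which Sult1e1 and Sult3a1 were higher and Sult2a5 lower. Over all named genes the lower ones had a median of -0.72 and the higher ones 0.73, since the cutoff removes differences near 0.

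**Figure D4:**
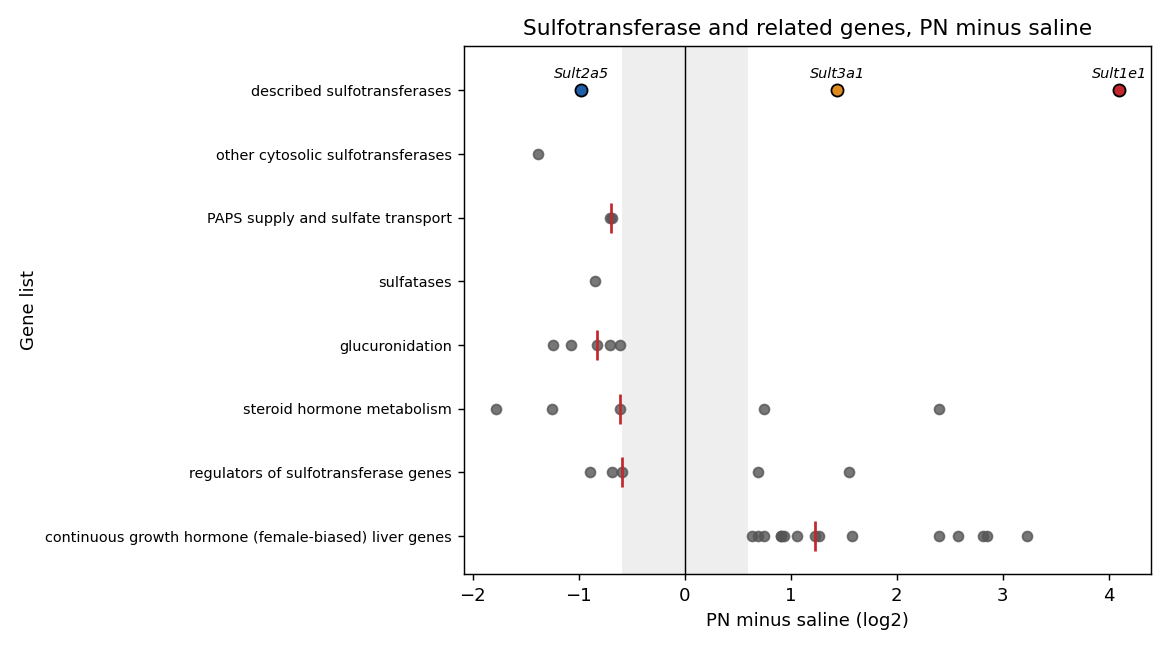
PN minus saline difference (log2, horizontal axis) of the 3 sulfotransferases (top) and of the genes with a named row in 7 lists of related genes, each point 1 gene and each red bar a list's median, with the differences under 1.5-fold that the table leaves out in grey. As deposited, the sulfate, sulfatase, glucuronidation and other sulfotransferase genes lie to the left of 0 (-0.61 to -1.38), though centring on the receptor genes turned Ugdh, while Sult1e1 at 4.10, Sult3a1 at 1.44 and the growth hormone list (0.64 to 3.23) lie to the right.

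Genes that make or convert the steroid substrates went both ways. Of 26 listed, 5 had a row, with 2 higher, 3 lower and a median of -0.61, beside 50.2% higher and 49.8% lower over all named genes. Cyp17a1, a steroid hydroxylase and lyase, was 5.28-fold higher, at 9.04 in the PN pool and 6.64 in the saline pool. Cyp17a1 is also counted in the growth hormone list below. Hsd17b7, a reductase of estrone and of cholesterol synthesis, was 1.68-fold higher, at 8.03 in the PN pool and 7.27 in the saline pool. Akr1c6, a hydroxysteroid dehydrogenase, was 3.44-fold lower, at 5.80 in the PN pool and 7.58 in the saline pool. Hsd3b5, a steroid reductase of male mouse liver, was 2.39-fold lower, at 6.64 in the PN pool and 7.90 in the saline pool. Hsd17b2, which oxidises estradiol to estrone, was 1.53-fold lower as deposited and turned to 0.03 on the log2 scale when centred on the receptor genes.

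Of 25 regulators named in connection with sulfotransferase or sex-dependent liver genes, 5 had a row. Of these, 2 were higher and 3 lower, with a median of -0.60, beside 50.2% higher and 49.8% lower over all named genes. Onecut1, which encodes HNF6, was 2.93-fold higher, at 9.05 in the PN pool and 7.50 in the saline pool. Ahr, the aryl hydrocarbon receptor gene, was 1.62-fold higher, at 8.00 in the PN pool and 7.31 in the saline pool. Nr0b2, the corepressor SHP, was 1.85-fold lower, at 7.60 in the PN pool and 8.49 in the saline pool. Rora, a nuclear receptor known to act on Sult1e1 in mouse liver, was 1.60-fold lower, at 6.04 in the PN pool and 6.72 in the saline pool. Foxa2, a forkhead factor of hepatocytes, was 1.51-fold lower as deposited and turned to 0.04 on the log2 scale when centred on the receptor genes. The genes of CAR, PXR, FXR and the growth hormone effector STAT5B (Nr1i3, Nr1i2, Nr1h4 and Stat5b) had no named row.

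The 3 sulfotransferases can be set beside a list of liver genes of continuous growth hormone secretion, the female pattern. Of 30 such genes listed, 15 had a row, each of the 15 above its saline level, with a median difference of 1.23. Over all named genes 50.2% were higher, and the higher ones had a median of 0.73. The list was written with the direction of many of its own genes already known, so its count is no independent evidence. The differences of Cyp2b9 (a P450 gene), Slc22a27 (of the organic anion transporters), Lepr (leptin receptor) and Abcd2 (peroxisomal fatty acyl import) were 3.23, 2.86, 2.82 and 2.58. At the low end, the P450 genes Cyp39a1, Cyp2a4 and Cyp2c40 and the flavin monooxygenase gene Fmo2 were at 0.64, 0.70, 0.75 and 0.91. Sult1e1 exceeded all 15 in its direct difference, though not Cyp2b9 with the background level at 3.93, and Sult2a5 went the other way.

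Over the 2 arrays the named genes with levels most like those of Sult1e1 were Slc22a27, Lepr and Abcd2, by Euclidean distance over the pair of log2 levels, at 0.94, 1.24 and 1.82. For Sult3a1 they were Serpinb9d, Sptssb and Krtap4-6, at 0.26, 0.34 and 0.36. For Sult2a5 they were Trim15, Zg16 and Rpl30, at 0.05, 0.07 and 0.15. The search covered 1282 named genes, leaving out predicted, RIKEN, small RNA and chemosensory receptor genes. This distance depends on the brightness of the probe sets and on how many genes lie near background, and describes the values only.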

How the data were processed

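Liver RNA of 2 pools, PN and saline, each of 3 mice, was measured on 1 array per group after biotin labelling of cDNA, per the labels' protocols. The deposited log2 values were made by the authors with RMA in Affymetrix Expression Console 1.4.0.38, per the submitters' processing notes. Genome build, probe annotation and the batch of arrays that RMA saw were not given in the sources used here. A 1.5-fold cutoff on rows is stated in the series' design text, and the smallest absolute difference on the file was 0.585 (log2).

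Of 5082 rows, 1779 named 1 gene by the platform annotation, 161 named several and 3142 no gene. Rows were averaged per symbol (22 genes had several rows), which gave 1750 named genes. Entrez identifiers of 1766 rows matched RefSeq GRCm38.p6, and no symbol needed updating. The members, the gene lists, the motifs and the choices below were made with earlier results of these data known. Genes given with values are the 3 members, listed genes with a row of 1 symbol (up to 4 at either end of a list of over 8), and the 3 genes nearest to each member. With 1 array per group no p-value or error was computed, and the number of arrays limits the precision. Promoter windows are the 250 bases before the start in RefSeq, matched for all 3 members. Computation used Python 3.11.15, pandas 2.3.3 and NumPy 2.4.6 and was tested on simulated data. Alternatives were 2 background levels, centring on the receptor genes, quantile normalization, the brightest row per gene, rows of several symbols and a 2-fold cutoff.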

Additional observations from a re-analysis of the deposited data

How the results depend on the processing

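All 3 sulfotransferase genes kept their direction under every alternative that gave a value, but the sizes moved. The kept direction is no check in most settings. Raising levels to a floor or taking the brightest row could not turn it, and centring could not turn it for Sult1e1 and Sult3a1. The Sult1e1 difference of 4.10 was 3.75 with levels raised to the median receptor level, 3.09 with the 75th percentile of 3.93, 4.74 when centred on the median receptor difference of -0.64 and 4.18 after quantile normalization. The Sult3a1 difference of 1.44 was 0.56, 2.08 and 1.57 with the median receptor level, centring and quantile normalization, and had no value at the 75th percentile, where both levels lay under the floor. The Sult2a5 difference of -0.98 was -0.94 and -0.28 at the 2 floors, -0.34 when centred and -0.93 after quantile normalization. Taking the brightest row per gene changed none, since each has 1 row. Centring turned the direction of 3 of 33 list genes (Ugdh, Hsd17b2 and Foxa2), which left 1 glucuronidation gene higher, and quantile normalization turned 0. The receptor genes had passed the cutoff too, so the centring shift exceeds it and genes lower by just over 1.5-fold had to turn. With members of at least 2-fold only, fewer genes were left: 0 lower genes of PAPS supply and sulfate transport, 0 of sulfatases, 2 of glucuronidation (1 with levels raised to background, which leaves out Ugt2b38) and 0 regulators, 1 higher gene of steroid metabolism, 1 higher regulator and 9 higher genes of the growth hormone list. Counting rows of several symbols gave 5 lower entries of the steroid list in place of 3. The added entries were a pair of rows with identical values, shared by Hsd3b4, Hsd3b5 and a predicted gene. The pair was at 4.31 in the PN pool and 5.60 in the saline pool, and Hsd3b5 was already among the 3. No paired analysis was possible because each group is 1 pooled array. Signal near background limits the folds of all 3 sulfotransferase genes.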
